A study of Homo sapiens with 8 samples.

Results

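The glycolytic genes and the hypoxia-inducible genes were followed in 2 cell populations derived from H460, a human non-small cell lung cancer line. The members were 47 genes chosen by name: 23 genes of glucose uptake, glycolysis and its control, 4 genes of the hypoxia-inducible factor (HIF) machinery, and 20 other known HIF targets. A probe counted when the accession of the array design led to a listed symbol, older symbols included, and all 47 members were among the 20317 genes tested. H460 cells were grown attached in RPMI with 10% serum. H460C cells are the cancer stem cell (CSC) population, obtained from H460 by growth without attachment in a serum-free DMEM/F12 medium with N2 supplement, EGF and bFGF. H460R cells are the cisplatin-resistant population, obtained by a 72 h exposure of H460 cells to cisplatin (0.5 µg/mL), after which they grew without the drug. Medium, serum and attachment changed together with the H460C population, so these and the population itself cannot be told apart.

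Each of the 8 whole-genome arrays set 1 population against H460 in 2 colors. H460C and H460R had 2 RNA samples each, every sample was run on 2 arrays with the dyes exchanged, and all arrays shared the 1 H460 RNA that the labels give. Values are log2 ratios of the population over H460, so that 1 is 2-fold higher and 0 is no difference, and each gene was read at its brightest probe. The values of the arrays are listed in 1 order throughout: replicate 1 with the population in Cy3, replicate 1 in Cy5, replicate 2 in Cy3 and replicate 2 in Cy5. A spot that the scanner software marked as an outlier was left out, which touched 8 members, and the mean then rests on the other array of that pair. The deviations of the H460C replicates did not repeat between dyes (r = -0.0106 across 24642 probes), whereas those of H460R did in part (r = 0.267 across 25713 probes). H460C was therefore counted as 1 sample, with no SD, and H460R values are mean ± SD with n = 2. Nothing says that replicates came from separate cultures, and the p-values then measure a spread that may be technical. Each population also had a slide to itself, and these 2 factors cannot be told apart. Between 22834 and 28499 probes per channel stood well above background. Of the epithelial markers, KRT8, KRT18 and KRT19 were well above background on all arrays, EPCAM in all 4 H460C channels, 3 of 4 of H460R and 7 of 8 of H460, and CDH1 in H460C only. In H460C EPCAM stood at a log2 ratio of 1.36 and KRT19 at -1.15, the latter at a spot saturated on some arrays. Of the leukocyte, endothelial and fibroblast markers, PTPRC, CDH5, TEK and COL1A2 did not pass the filter on dim probes. CD14 and CD68 were well above background on all arrays (-0.90 and -0.45 in H460C, -0.79 and 0.03 in H460R), and so were LUM (-3.23 and -1.01) and PDGFRB (0.20 and -0.45). DCN was well above background in every channel of H460 and H460R and in 1 of H460C (-1.37), KDR in all 8 channels of H460, 1 of H460R and 0 of H460C, and PECAM1 in H460C only. CD3E was so in every channel of both populations and 6 of 8 of H460, and VWF in 3 of 4 of H460C, 4 of H460R and 4 of 8 of H460. The part of these markers in the results was not tested. In these populations, all cultured from the H460 line, fewer cells of a kind and less RNA per cell cannot be told apart.

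Glycolysis splits glucose into pyruvate in the cytosol, and tumor cells often send that pyruvate to lactate even with oxygen at hand. HIF is a pair of proteins, an oxygen-regulated alpha subunit (HIF1A or EPAS1) and a constant partner. With oxygen, prolyl hydroxylases of the EGLN family mark the alpha subunit for destruction, so its activity is set mainly at the protein level, which arrays do not measure. Stabilized HIF binds a short DNA core, the hypoxia response element, and turns on genes of glucose uptake, glycolysis, acid export, vessel growth and cell survival.

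The promoters of 6 members whose results are described below are shown to let the HIF core be read beside the values. The core was searched as ACGTG or GCGTG on either strand of the RefSeq promoter windows (GRCh38.p14, 250 bases before to 50 after each start), and the palindromic CACGTG counts on both strands. Of 35116 windows of all genes, 48.4% held a core, and of the 74 windows of the 41 members with an entry 71.6% did. Among genes with a single window the shares were 47.3% of 22114 genes and 88.9% of 27 members. The members were listed because they are known HIF targets or glycolytic genes, so this share is a description of the list. SLC2A3, VEGFA, STC1, BNIP3L, NDRG1 and HILPDA had no entry in that table. Shown are the 250 bases before the start, 5′ to 3′ on the strand of the gene, with core matches in capitals. They are ANKRD37 (chr4:185396591-185396840, plus strand), with cores from 162 and 143 bases before the start, EGLN3 (chr14:33951075-33951324, minus strand), with none in this stretch, ALDOC (chr17:28576896-28577145, minus strand), with 4 stretches, CA9 (chr9:35673678-35673927, plus strand), with a core from 18 bases before the start, ADM (chr11:10304823-10305072, plus strand), with 1 from 101 bases before it, and CA12 (chr15:63381847-63382096, minus strand), with 1 from 234 bases before it.
ANKRD37: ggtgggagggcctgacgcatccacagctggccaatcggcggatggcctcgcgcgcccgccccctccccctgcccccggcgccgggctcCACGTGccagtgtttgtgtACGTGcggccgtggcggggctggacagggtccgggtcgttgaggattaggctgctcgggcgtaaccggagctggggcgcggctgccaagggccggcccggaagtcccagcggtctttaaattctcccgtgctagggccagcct
EGLN3: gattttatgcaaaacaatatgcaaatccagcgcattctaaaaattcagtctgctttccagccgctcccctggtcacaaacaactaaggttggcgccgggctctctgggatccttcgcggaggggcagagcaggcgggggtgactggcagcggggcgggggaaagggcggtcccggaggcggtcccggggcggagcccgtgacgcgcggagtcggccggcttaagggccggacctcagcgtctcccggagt
ALDOC: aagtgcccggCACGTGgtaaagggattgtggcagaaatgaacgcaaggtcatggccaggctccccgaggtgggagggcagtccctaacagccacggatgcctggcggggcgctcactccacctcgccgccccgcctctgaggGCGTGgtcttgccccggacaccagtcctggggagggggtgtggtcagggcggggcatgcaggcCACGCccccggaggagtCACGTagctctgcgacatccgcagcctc
CA9: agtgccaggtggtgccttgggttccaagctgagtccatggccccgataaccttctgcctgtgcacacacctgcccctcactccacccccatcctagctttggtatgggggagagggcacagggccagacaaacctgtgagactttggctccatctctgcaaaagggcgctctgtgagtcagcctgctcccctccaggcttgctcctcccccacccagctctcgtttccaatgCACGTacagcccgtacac
ADM: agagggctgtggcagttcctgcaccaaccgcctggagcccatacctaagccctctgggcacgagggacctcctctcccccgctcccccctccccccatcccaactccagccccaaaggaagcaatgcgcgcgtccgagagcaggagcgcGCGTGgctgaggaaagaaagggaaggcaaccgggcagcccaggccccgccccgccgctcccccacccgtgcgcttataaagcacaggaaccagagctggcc
CA12: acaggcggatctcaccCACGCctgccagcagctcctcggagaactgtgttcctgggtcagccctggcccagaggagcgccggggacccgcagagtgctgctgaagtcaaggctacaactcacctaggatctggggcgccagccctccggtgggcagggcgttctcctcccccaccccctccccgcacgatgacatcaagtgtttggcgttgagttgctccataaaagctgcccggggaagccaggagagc

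In H460C the listed genes stood mostly above H460, with a higher median among the HIF targets outside glycolysis than among the glycolytic members. HILPDA, ANKRD37, ADM, EGLN3 and NDRG1 rose 7.63-, 6.27-, 5.69-, 5.26- and 4.95-fold. In H460R the list as a whole stayed near the middle of all genes, with ADM and CA12 raised and CA9 and SLC2A3 lowered. The median log2 ratio in H460C was 0.67 over the 23 glycolytic members, 0.04 over the 4 HIF regulators and 1.35 over the 20 other HIF targets, beside 0.00 over all genes. The same medians in H460R were -0.01, -0.17 and 0.18, beside 0.01 over all genes. Saturation on at least 1 array touched the glycolytic probes read for GAPDH, PGK1, SLC16A3, LDHA, ENO1 and GPI. Among the other targets it touched BNIP3 and NDRG1. The part of saturation in the difference between the medians was not tested. By the exact Rank Products test at a false discovery rate (FDR) of 0.05, 5 of 47 members were called higher in H460C, where 0.556% of all genes were, and 0 members lower, where 0.502% of all genes were. In H460R 2 members were called higher and 2 lower, where 0.492% and 0.477% of all genes were. For H460C this test covers only the noise between hybridizations, since both ratios count as 1 sample, and in neither population does it account for variation of the H460 RNA.

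A second reading, with no test, asked for a log2 ratio past 1 or -1 in every array of a population. In H460C 16 members lay above 1 in every array, beside 2.72% of all genes, and 0 lay below -1, beside 1.61%. These 16 were HK2, ALDOC, PGAM1, PFKFB4, EGLN3, VEGFA, ADM, ANGPTL4, CA9, CA12, P4HA2, ERO1A, ANKRD37, AK4, NDRG1 and HILPDA. They made up 4 of the 23 glycolytic members, 1 of the 4 HIF regulators and 11 of the 20 other targets. Left-out arrays were not counted, so PGAM1, CA12, ERO1A and AK4 passed on the 3 H460C arrays left. AK4 also had only 3 H460R arrays. In H460R 3 members (ADM, CA12 and AK4) lay above 1 in every array, beside 1.52% of all genes, and 2 (SLC2A3 and CA9) lay below -1, beside 0.63%. In H460C 35 members lay above 0 in every array, beside 34.6% of all genes, and 3 below 0, beside 31.6%, while in H460R 15 lay above 0, beside 32% of all genes, and 11 below 0, beside 27%. With the log ratio of the scanner software in place of the one used here, 0 members were called in H460C, where the 5 kept log2 ratios of 2.25 to 2.91 and had exact Rank Products FDRs of 0.1 to 0.177. In H460R only CA9 kept its call with that log ratio.

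**Figure D1:**
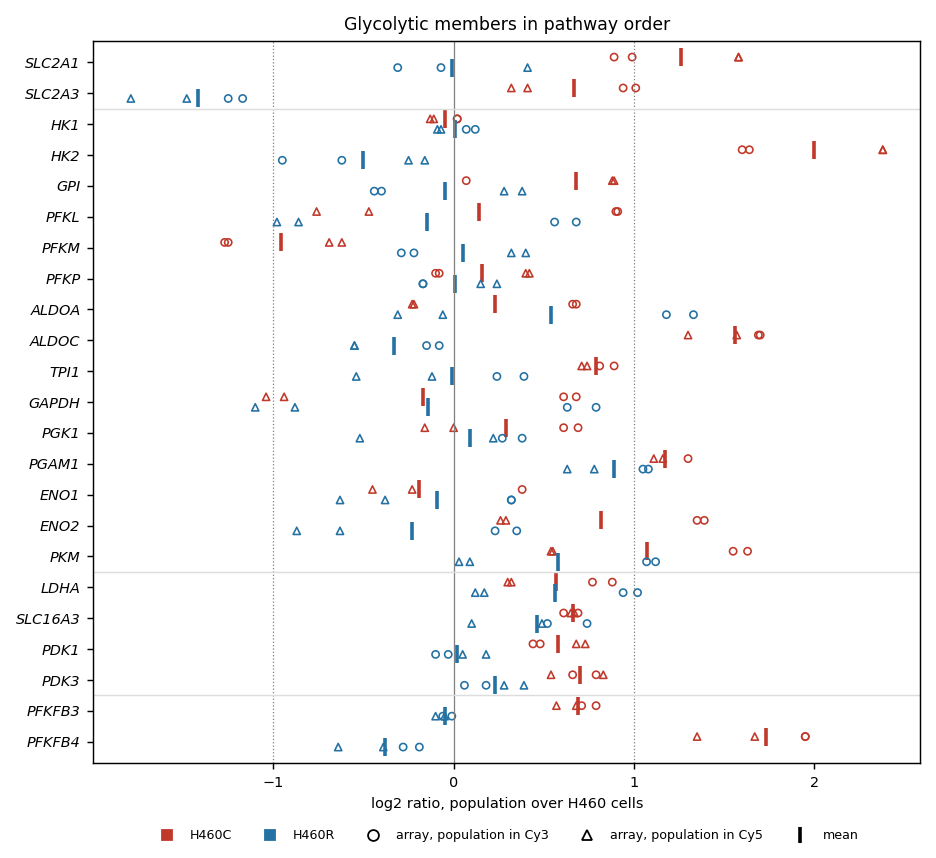
Log2 ratio over H460 of the 23 glycolytic members, in pathway order from glucose uptake to the fructose-2,6-bisphosphate enzymes. Each open symbol is 1 array (circle, population in Cy3; triangle, population in Cy5), the vertical tick is the mean, and dotted lines mark 1 and -1. HK2, ALDOC and PFKFB4 lie above 1 in every H460C array and below 0 in every H460R array, and GAPDH and PFKL lie on opposite sides of 0 in the 2 dye orientations.

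The first step is the entry of glucose. SLC2A1 and SLC2A3 encode the glucose transporters GLUT1 and GLUT3. SLC2A1 (NM_006516) read 0.99, 1.58, 0.89 and 1.58 in H460C, a mean of 1.26 or 2.4-fold, and -0.31, 0.41 and -0.07 in the 3 H460R arrays left, a mean of -0.01 ± 0.083. Replicate 2 of H460R kept only Cy3, so this SD mixes dye with replicate. With the outlier-marked spots kept, the H460R mean was 0.1. The arrays of the populations did not overlap, and Rank Products called SLC2A1 in neither. SLC2A3 (NM_006931) read 0.94, 0.32, 1.01 and 0.41 in H460C and -1.17, -1.48, -1.25 and -1.79 in H460R. It lay above 0 in every H460C array (mean 0.67) and fell in H460R to -1.42 ± 0.14, or 0.373-fold (exact Rank Products FDR = 0.0315). A second, dimmer SLC2A3 probe gave -0.15 in H460C and -0.83 in H460R, so the sign in H460C depended on the probe. The call in H460R was lost on the Cy3 arrays alone (FDR = 0.111 by the exact test), where the log2 ratio was -1.21, and with the mean over probes (0.0884, log2 ratio -1.12).

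Hexokinase traps glucose as glucose 6-phosphate, and cells have a housekeeping form (HK1) and an inducible one (HK2). HK2 (NM_000189) read 1.64, 2.38, 1.60 and 2.38 in H460C, a mean of 2.00 or 4-fold, with an exact Rank Products FDR of 0.0742 that missed the threshold. In H460R it read -0.95, -0.25, -0.62 and -0.16, a mean of -0.50 ± 0.15. Every H460C array lay above every H460R array, and a second HK2 probe gave 2.55 and 0.10. Rank Products called that second probe higher in H460C (exact FDR = 0.0308), and it called the first with no filter, on the Cy5 arrays alone and with the mean over probes (exact FDRs of 0.0348 to 0.0491). HK1 stayed at -0.05 and 0.01. GPI, which turns glucose 6-phosphate into fructose 6-phosphate, had a mean of 0.68 in H460C and -0.05 in H460R, with H460 saturated on 1 array. In H460C it read 0.07 on the Cy3 array left and 0.88 and 0.89 on the Cy5 arrays, so that mean leans on Cy5. Replicate 2, which kept both dyes, gave 0.48.

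Phosphofructokinase sets the pace of glycolysis, and its 3 subunits differed in H460C. PFKM, the muscle form (NM_000289), read -1.25, -0.62, -1.27 and -0.69 in H460C and -0.29, 0.32, -0.22 and 0.40 in H460R. It was the glycolytic member with the lowest mean in H460C (-0.96, or 0.515-fold) and was called by Rank Products in neither population (means -0.96 and 0.05 ± 0.058). The platelet form PFKP had means of 0.16 and 0.01, and the liver form PFKL 0.14 and -0.15, with arrays on both sides of 0. PFKFB3 and PFKFB4 make and remove fructose 2,6-bisphosphate, the strongest activator of phosphofructokinase. PFKFB4 (NM_004567) read 1.95, 1.35, 1.95 and 1.67 in H460C, a mean of 1.73 or 3.32-fold, and -0.28, -0.64, -0.19 and -0.39 in H460R, a mean of -0.38 ± 0.12. No PFKFB4 array of one population reached those of the other. PFKFB3 had means of 0.69 and -0.05, and another of its probes gave 0.03 and -0.14.

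Aldolase cuts the 6-carbon sugar. ALDOC (NM_005165), whose promoter above holds 4 core stretches, read 1.69, 1.30, 1.70 and 1.57 in H460C, a mean of 1.56 or 2.96-fold. In H460R it read -0.08, -0.55, -0.15 and -0.55, a mean of -0.33 ± 0.026. ALDOC was thus above 1 in every H460C array and below 0 in every H460R array, while ALDOA, the common form, averaged 0.23 and 0.54 with arrays on both sides of 0 in each population. TPI1, which interconverts the 3-carbon sugars, averaged 0.79 and -0.01.

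GAPDH, which oxidizes glyceraldehyde 3-phosphate and is widely used as a reference gene, read 0.68, -1.04, 0.61 and -0.94 in H460C and 0.79, -0.88, 0.63 and -1.10 in H460R. All Cy3 values were positive and all Cy5 values negative in both populations, with means of -0.17 and -0.14 ± 0.14. Its spot was saturated for H460C on 4 of 4 arrays, for H460R on 2 of 4, and for H460 on 2 of the 4 arrays of each population, so no fold change can be read from it. The probe read for PGK1, the first ATP-yielding enzyme, was saturated for H460C on 4 arrays, for H460R on 1 and for H460 on 2 of the 4 arrays of each population, at means of 0.29 and 0.09. Its other 2 probes were never saturated and averaged 1.29 and 0.87 in H460C and -0.17 and -0.25 in H460R. PGK1 in H460C thus stood above H460 at both probes that could be measured.

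PGAM1, which moves the phosphate of 3-phosphoglycerate, lay above 0 in every array of both populations. PGAM1 (NM_002629) read 1.11, 1.30 and 1.16 in the 3 H460C arrays left, a mean of 1.17, and 1.05, 0.63, 1.08 and 0.78 in H460R, a mean of 0.89 ± 0.062. The enolase forms parted: ENO2, the neuronal form (NM_001975), read 1.39, 0.26, 1.35 and 0.29 in H460C and 0.35, -0.63, 0.23 and -0.87 in H460R. All ENO2 arrays were above 0 in H460C (mean 0.82), while those of H460R lay on both sides of 0 (mean -0.23 ± 0.13). The common form ENO1 averaged -0.19 and -0.09, with H460C saturated on 2 arrays, and its other probe gave 0.18 and -0.14. At the probe read, ENO1 in H460C was 0.38 on the Cy3 array left and -0.45 and -0.23 on the Cy5 arrays. With the outlier-marked spots kept, that mean was 0.05. PKM, pyruvate kinase, lay above 0 in every array, at means of 1.07 and 0.58, and its second probe gave 1.13 and 0.55.

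The genes that decide where pyruvate goes averaged above 0 in H460C at the probes read. LDHA, which makes lactate, averaged 0.57 and 0.56 at a probe saturated on 2 arrays for each population, and 0.50 and 0.35 at a probe that was never saturated. SLC16A3, the lactate exporter MCT4, averaged 0.66 and 0.46, but was saturated for H460C on all 4 arrays and for H460 on 2 of the 4 of each population, so these are not measured sizes. PDK1 and PDK3 are pyruvate dehydrogenase kinases, which hold back the use of pyruvate inside mitochondria. PDK1 averaged 0.58 and 0.02, with 0.12 and -0.35 at a second probe, and PDK3 averaged 0.70 and 0.23. Rank Products called none of these 4 genes in either population.

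**Figure D2:**
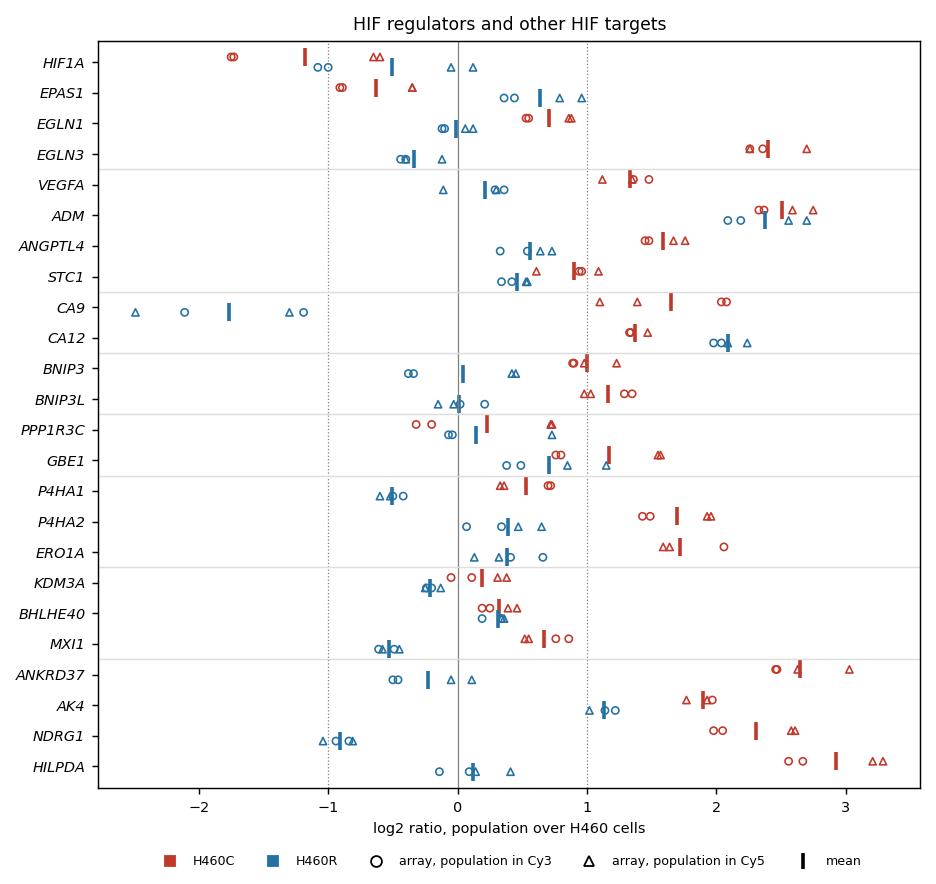
Log2 ratio over H460 of the 4 HIF regulators and the 20 other HIF targets, drawn as in the plot of the glycolytic members. ANKRD37, NDRG1, HILPDA and EGLN3 lie above 1 in every H460C array and below 1 in every H460R array, ADM is high in both populations, and CA9 and CA12 part in H460R.

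The transcripts of the HIF alpha subunits were not raised in H460C. HIF1A (NM_181054) read -1.73, -0.60, -1.75 and -0.65 in H460C, a mean of -1.18 or 0.441-fold, and -1, -0.05, -1.08 and 0.12 in H460R, a mean of -0.51 ± 0.032. It was below 0 in every H460C array and was called by Rank Products in neither population (exact FDR = 0.182 and 0.546). EPAS1, which encodes HIF-2 alpha (NM_001430), read -0.89, -0.35, -0.91 and -0.35 in H460C and 0.36, 0.79, 0.44 and 0.96 in H460R. Every H460C array was below 0 (mean -0.63) and every H460R array above 0 (mean 0.64 ± 0.089), and a second EPAS1 probe gave -0.56 and 0.13.

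EGLN3 and EGLN1, hydroxylases that are HIF targets themselves, lay above H460 in H460C at the probes read. EGLN2, listed apart from the members, averaged -0.37 in H460C and -0.43 in H460R. EGLN3 (NM_022073), whose promoter stretch above holds no core, read 2.36, 2.26, 2.26 and 2.70 in H460C and -0.40, -0.40, -0.44 and -0.12 in H460R. It rose in H460C to 2.40, or 5.26-fold (exact Rank Products FDR = 0.0398), and averaged -0.34 ± 0.083 in H460R. EGLN1, the main oxygen-sensing hydroxylase, averaged 0.71 and -0.01, with 0.06 and -0.40 at a second probe.

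Among the secreted targets, ADM was high in both populations. ADM encodes adrenomedullin, a peptide that widens vessels and favors their growth. ADM (NM_001124) read 2.37, 2.59, 2.33 and 2.75 in H460C and 2.09, 2.56, 2.19 and 2.70 in H460R. It rose to 2.51 in H460C (exact Rank Products FDR = 0.0335) and to 2.38 ± 0.086 in H460R (FDR = 0.00529). The array values of the populations overlapped. With an offset of 0 the calls of ADM and EGLN3 in H460C were lost (exact Rank Products FDR = 0.0528 for both), as they were on the Cy3 arrays alone (0.0579 and 0.0599).

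VEGFA and ANGPTL4, which act on vessels, were above H460 mainly in H460C. VEGFA (NM_003376) read 1.48, 1.12, 1.36 and 1.35 in H460C and 0.36, 0.30, 0.29 and -0.11 in H460R, with means of 1.33 and 0.21 ± 0.17. Its other 3 probes gave 0.43, 0.44 and 0.50 in H460C and -0.49, -0.40 and -0.08 in H460R, so the size over H460 depended on the probe. ANGPTL4 (NM_139314) read 1.48, 1.67, 1.45 and 1.76 in H460C, a mean of 1.59 or 3.01-fold, and 0.33, 0.64, 0.54 and 0.73 in H460R, a mean of 0.56 ± 0.1. The 2 sets of ANGPTL4 arrays did not overlap. STC1, a secreted calcium and phosphate regulator, averaged 0.90 and 0.46.

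The carbonic anhydrases CA9 and CA12 sit on the cell surface and turn carbon dioxide into bicarbonate, which buffers acid-producing cells. They were both high in H460C and went opposite ways in H460R. CA9 (NM_001216) read 2.04, 1.1, 2.08 and 1.39 in H460C, a mean of 1.65 or 3.14-fold. In H460R it read -1.19, -1.30, -2.11 and -2.49 and fell to -1.77 ± 0.74, or 0.293-fold (exact Rank Products FDR = 0.011). The H460R replicates of CA9 differed by more than those of any other member, with both arrays of replicate 2 below both of replicate 1. The scanner software's log ratio put CA9 in H460R at -2.74 (exact Rank Products FDR = 0.00594) and its difference between the populations at 4.52. By limma with a minimum log2 ratio of 1, CA9 in H460R did not pass (limma adjusted p = 0.399). CA12 (NM_001218) read 1.33, 1.47 and 1.34 in the 3 H460C arrays left, a mean of 1.37. In H460R it read 2.04, 2.24, 1.98 and 2.09 and rose to 2.09 ± 0.069, or 4.25-fold (exact Rank Products FDR = 0.0161). A second CA12 probe gave 1.12 in H460C and 1.36 in H460R.

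BNIP3 and BNIP3L, which tag mitochondria for removal, were about 2-fold above H460 in H460C and near 0 in H460R. BNIP3L (NM_004331) read 1.35, 1.03, 1.29 and 0.98 in H460C and 0.21, -0.03, 0.02 and -0.15 in H460R, with means of 1.16 and 0.01 ± 0.11. BNIP3 averaged 1.00 and 0.04, with H460C saturated on 2 arrays. Of the glycogen genes, the branching enzyme GBE1 averaged 1.17 and 0.71, and the phosphatase subunit PPP1R3C 0.23 and 0.14. PPP1R3C had arrays on both sides of 0 in each population, and replicate 1 of H460R kept only Cy3.

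Genes of collagen and disulfide folding were above 0 in every H460C array. P4HA1 and P4HA2 encode the catalytic subunits of collagen prolyl hydroxylase, and ERO1A reoxidizes the enzyme that forms disulfide bonds. P4HA2 (NM_004199) read 1.49, 1.93, 1.43 and 1.96 in H460C and 0.34, 0.65, 0.07 and 0.47 in H460R, with means of 1.70 and 0.39 ± 0.16. P4HA1 (NM_000917) read 0.70, 0.33, 0.72 and 0.36 and -0.42, -0.52, -0.50 and -0.60, with means of 0.53 and -0.51 ± 0.056. ERO1A (NM_014584) read 2.06, 1.64 and 1.59 in the 3 H460C arrays left and 0.66, 0.32, 0.41 and 0.13 in H460R, with means of 1.72 and 0.38 ± 0.16. P4HA1 was thus below 0 in every H460R array where P4HA2 and ERO1A were above it.

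The 3 genes of transcription and chromatin had the lowest median of the target groups in H460C, 0.32. MXI1, a repressor that opposes MYC (NM_130439), read 0.86, 0.52, 0.76 and 0.55 in H460C and -0.49, -0.45, -0.61 and -0.58 in H460R, with means of 0.67 and -0.53 ± 0.088. The histone demethylase KDM3A averaged 0.19 and -0.21, and the repressor BHLHE40 0.32 and 0.31.

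The 4 remaining targets included the genes with the highest mean ratios of the list in H460C, HILPDA and ANKRD37. HILPDA, which blocks lipid droplet breakdown (NM_013332), read 2.56, 3.21, 2.67 and 3.29 in H460C and -0.14, 0.14, 0.09 and 0.41 in H460R. It rose to 2.93 in H460C (exact Rank Products FDR = 0.0153) and averaged 0.12 ± 0.18 in H460R. ANKRD37 (NM_181726), whose promoter above holds 2 core stretches, read 2.46, 2.63, 2.47 and 3.03 in H460C and -0.46, -0.05, -0.50 and 0.11 in H460R. It rose to 2.65 in H460C (exact Rank Products FDR = 0.0256), with a mean of -0.23 ± 0.047 in H460R.

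NDRG1, a stress-responsive gene linked to differentiation (NM_006096), read 1.98, 2.61, 2.05 and 2.58 in H460C and -0.84, -0.81, -0.94 and -1.04 in H460R. It rose to 2.31 in H460C (exact Rank Products FDR = 0.0441) and averaged -0.91 ± 0.12 in H460R, where it was below 0 in every array. The call was lost without background subtraction, with an offset of 0, with median centring, with the mean over probes, on the Cy3 arrays alone and with the scanner software's ratio, at exact FDRs of 0.0501 to 0.177 and log2 ratios of 1.56 to 2.41. The spot was saturated for H460C on 1 of 4 arrays. A second NDRG1 probe, dim in H460 and H460R, gave 0.81 and -0.01. AK4, a mitochondrial adenylate kinase (NM_001005353), read 1.97, 1.77 and 1.93 in the 3 H460C arrays left and 1.14, 1.22 and 1.02 in the 3 H460R arrays left. AK4 was therefore above 1 in every array of both populations, at means of 1.90 and 1.13 ± 0.015, and was called in neither (exact Rank Products FDR = 0.0875 and 0.209).

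The populations were then compared directly, where the shared H460 RNA cancels. CA9, NDRG1, ANKRD37, HILPDA and EGLN3 were 10.7-, 9.28-, 7.33-, 7- and 6.66-fold higher in H460C than in H460R, and HK2, PFKFB4, SLC2A3 and ALDOC were 5.63-, 4.31-, 4.27- and 3.73-fold higher. The second probes of NDRG1 and SLC2A3 gave log2 differences of only 0.82 and 0.68, so the folds of these genes depended on the probe. By limma at an adjusted p of 0.05, 32 members were higher in H460C and 4 lower, in a comparison that called 22.8% of all genes higher and 23.7% lower. Asking also for a difference over 1 on the log2 scale left 18 members higher and 2 lower, beside 3.34% and 4.71% of all genes. The median difference was 0.48 over the glycolytic members, 0.02 over the HIF regulators and 1.04 over the other targets, beside 0.01 over all genes. The standard errors rest on the 2 H460R ratios and the spread shared across genes, since H460C entered as 1 sample that is assumed to vary like H460R. PFKM was the 1 of the 2 lower genes whose difference (-1.01) lay at the size threshold.

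**Figure D3:**
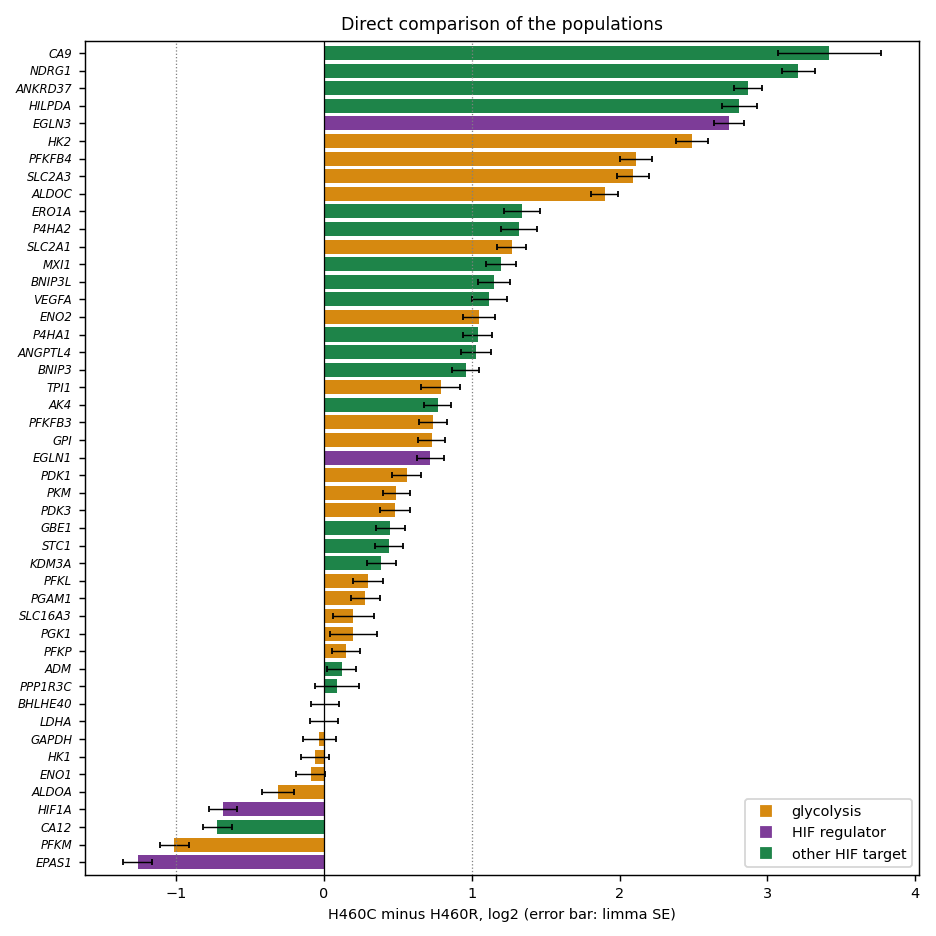
Difference between H460C and H460R in log2 ratio for the 47 members, sorted, with limma standard errors as error bars and dotted lines at 1 and -1. Bars are colored by class: the upper end holds CA9, NDRG1, ANKRD37, HILPDA and EGLN3, and the lower end EPAS1, PFKM, CA12 and HIF1A.

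Among the glycolytic members, 14 of 23 were higher in H460C and 1 (PFKM) was lower. The differences that passed 1 were HK2 (2.49 ± 0.11, limma adjusted p = 7.58e-06), PFKFB4 (2.11 ± 0.11), SLC2A3 (2.09 ± 0.11), ALDOC (1.90 ± 0.093), SLC2A1 (1.27 ± 0.1) and ENO2 (1.05 ± 0.11). PFKM differed by -1.01 ± 0.096 (limma adjusted p = 0.000185). These 7 genes were picked by the size of the difference on these arrays. That their arrays did not overlap, except for ENO2, is therefore no added support, and the share among all genes was not counted. The differences of LDHA (0.00 ± 0.095, limma adjusted p = 0.978) and HK1 (-0.06 ± 0.093, limma adjusted p = 0.618) did not pass the test. At the brightest probe PGK1 missed the threshold (limma adjusted p = 0.363), and both of its unsaturated probes passed it (limma adjusted p = 7.41e-05 and 0.000173).

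Among the other HIF targets, 16 of 20 were higher in H460C and 1 (CA12) was lower. The largest were CA9 (3.42 ± 0.35, limma adjusted p = 0.000256), NDRG1 (3.21 ± 0.11, 2.2e-06), ANKRD37 (2.87 ± 0.095, 2.19e-06) and HILPDA (2.81 ± 0.12, 5.93e-06). ERO1A, P4HA2, MXI1, BNIP3L, VEGFA, P4HA1 and ANGPTL4 followed at 1.34 down to 1.03. CA12 was -0.72 ± 0.098 (limma adjusted p = 0.000942), so it was higher in H460R, though its second probe did not pass (limma adjusted p = 0.0777). ADM, PPP1R3C and BHLHE40 did not pass, and the difference of ADM was 0.12 ± 0.1. Of the 4 regulators, EGLN3 (2.74 ± 0.1) and EGLN1 (0.72 ± 0.093) were higher in H460C, and EPAS1 (-1.26 ± 0.1, limma adjusted p = 8.17e-05) and HIF1A (-0.68 ± 0.094, limma adjusted p = 0.00104) were lower.

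**Figure D4:**
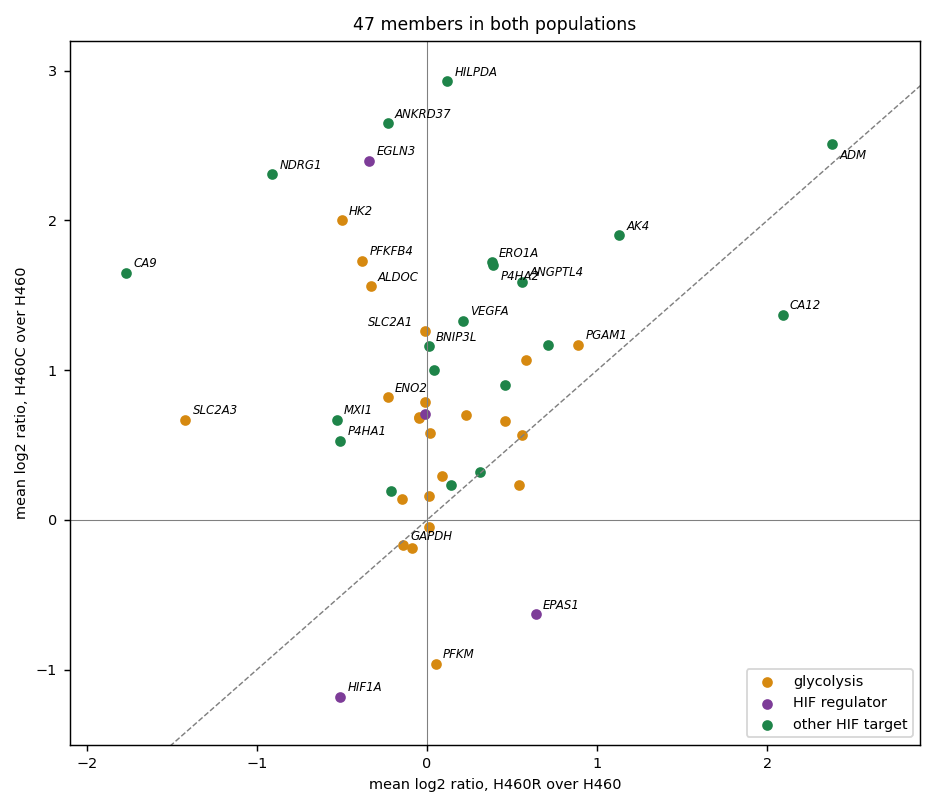
Mean log2 ratio over H460 in H460C (vertical) against H460R (horizontal) for the 47 members, colored by class, with the line of equal ratios dashed. Both axes share the H460 RNA. HILPDA, ANKRD37, EGLN3, NDRG1 and HK2 lie high in H460C with H460R near or below 0, ADM lies near the line at 2.51 and 2.38, and CA12 lies below it.

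Related members were also set against each other within each array, as the difference of their log2 ratios, with no test. HK2 minus HK1 was 2.05 in H460C (1.58 to 2.51 over 4 arrays) and -0.51 ± 0.17 in H460R (-1.07 to -0.07). ALDOC minus ALDOA was 1.34 (1.02 to 1.80) in H460C and -0.87 ± 0.11 (-1.41 to -0.25) in H460R. In both pairs the tissue-restricted or inducible form had the higher log2 ratio in every H460C array and the lower in every H460R array. Ratios over H460 do not compare the transcript levels of 2 genes. PFKM minus PFKP was -1.12 (-1.17 to -1.04) in H460C and 0.04 ± 0.029 in H460R. EGLN3 minus EGLN1 was 1.69 (1.39 to 1.83) in H460C and -0.33 ± 0.069 in H460R. PFKFB4 minus PFKFB3 was 1.04 (0.79 to 1.24) in H460C and -0.32 ± 0.16 in H460R. These 5 pairs kept 1 sign in every H460C array, as did ENO2 minus ENO1 (0.52 to 0.97 over 3 arrays). In H460C SLC2A1 minus SLC2A3 (-0.12 to 1.26), PDK1 minus PDK3 (-0.31 to 0.14) and BNIP3L minus BNIP3 (-0.26 to 0.45) did not. The widest gap was CA9 minus CA12 in H460R, at -3.86 ± 0.67 (-4.58 to -3.23), while in the 3 H460C arrays with both genes it ran from -0.37 to 0.74. P4HA2 minus P4HA1 was positive in every array of both populations (1.17 in H460C and 0.90 ± 0.10 in H460R), and so was EPAS1 minus HIF1A (0.55 in H460C and 1.14 ± 0.057 in H460R).

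**Figure D5:**
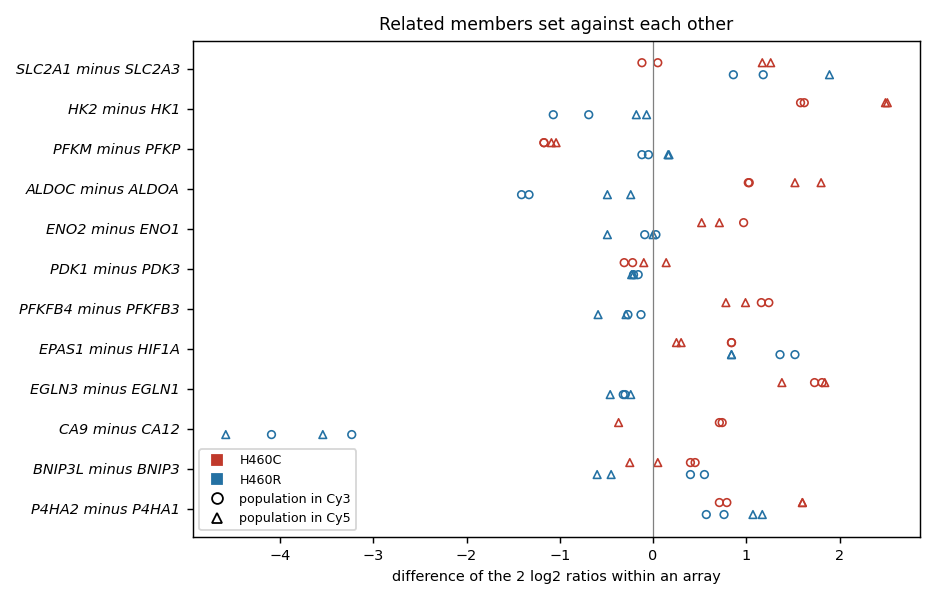
Difference of the log2 ratios of 2 related members within each array, for 12 pairs. Each symbol is 1 array, colored by population, with circles for the population in Cy3 and triangles for Cy5. HK2 minus HK1 and ALDOC minus ALDOA are positive in every H460C array and negative in every H460R array, and CA9 minus CA12 is far below 0 in H460R.

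Other genes of these pathways were listed apart from the members. Of 27 further glycolysis and gluconeogenesis genes, 19 were tested and 1 was called, higher in H460R, where 0.492% of all genes were called higher. PDK4, a pyruvate dehydrogenase kinase like PDK1 and PDK3, rose in H460R (2.19, 2.48, 2.16 and 2.53, mean 2.34 ± 0.0063, exact Rank Products FDR = 0.0066) and read -0.49, -0.27 and -0.47 in the 3 H460C arrays left. ENO3, the muscle enolase, read 1.69, 1.57, 1.67 and 1.80 in H460C and -0.15, -0.04, -0.05 and 0.02 in H460R, and was not called. The median of the 19 was 0.23 in H460C and 0.13 in H460R. By limma 6 of them were higher in H460C than in H460R and 5 lower, beside 22.8% and 23.7% of all genes.

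Of 34 further hypoxia genes, 32 were tested. PLOD2, a collagen lysyl hydroxylase, and WSB1, a ubiquitin ligase subunit, rose in H460R, 2 genes of the 32 where 0.492% of all genes were called higher. PLOD2 read 2.32, 1.56, 2.38 and 1.52 there (mean 1.94 ± 0.011, exact Rank Products FDR = 0.0224) and averaged 0.84 in H460C. WSB1 read 2.25, 1.30, 2.46 and 1.39 (mean 1.85 ± 0.1, exact Rank Products FDR = 0.0279) and averaged 0.88 in H460C. PLIN2 (2.10), HMOX1 (1.92), TMEM45A (1.87), RORA (1.70) and FAM162A (1.51) lay above 1 in every H460C array, at the mean log2 ratios given, and were not called. In H460R PLOD2, WSB1 and HMOX1 (1.33) lay above 1 in every array. PLIN2, which coats the lipid droplets that HILPDA protects, averaged -0.67 ± 0.086 in H460R. The median of the 32 was 0.44 in H460C and 0.18 in H460R. By limma 16 of the 32 were higher in H460C than in H460R and 8 lower, beside the same 22.8% and 23.7%. The 7 genes of the pentose phosphate pathway, which branches from glucose 6-phosphate, had medians of -0.09 and -0.36, with 0 called by Rank Products and 2 higher and 2 lower in H460C by limma, beside 22.8% and 23.7% of all genes.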

How the data were processed

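RNA of H460C, H460R and H460 cells was measured on 8 two-color Agilent arrays. The authors scanned them and deposited, for each spot, median foreground and background intensities without normalization, which were the values used. The log10 ratio (red over green) deposited with them, made by the Feature Extraction software (version 10.1.1.1) after its own background and dye correction, and the authors' processed table of log2 ratios, whose normalization is not given in the sources used here, served as alternatives. The 0 or 1 score that the software gave as a mark for outlier, saturated or well-above-background spots was used as deposited. The list of members was to be read from the processed table, and scanner intensities were used in its place because they carry the marks. The scale of that table (log2) and its direction (population over H460) were found by setting each column against the scanner values (r = 0.952 to 0.997), and its column medians ran from -0.02 to 0, so its centring is near 0. The log10 ratios of 1 array (H460C replicate 1 in Cy3) lacked decimal points, and a division by 10 to the 9 put these back.

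Background was corrected with normexp (offset 50) in limma 3.58.1 (R 4.3.3), and loess was applied to the ratios of every array with control spots left out. Outlier spots were dropped, ratios were turned to population over H460, and 43376 spots were averaged into 41000 probes. Probes with at least 0.5 of their spots well above background in every channel of at least 1 of the populations were kept, and 26014 were tested. Symbols came from the accession of the design through the RefSeq gene table of GRCh38.p14, which named 23958 of 25868 RefSeq-named probes. Each gene was read at its brightest probe. Dye-swap pairs were averaged into 1 ratio each. The tests were exact Rank Products against H460 and two-sided limma between H460C and H460R (1 residual and 6.28 prior degrees of freedom), with Benjamini-Hochberg adjustment over all probes at 0.05. Both were tested on simulated data with log2 changes of 1, 2 and 3. Rank Products recovered 0%, 98.5% and 100% of these, with 6 false calls. Limma recovered 0%, 58.2% and 78.8%, with 0 false calls, and called 91 of 26014 probes there, far fewer than in these data. A gene that Rank Products did not call may thus have a change near 1, or a larger one. In H460C HK2 (2.00) and PLIN2 (2.10) were not called. The simulation used the spread of H460R and few changed probes, so its shares need not hold for H460C. The number of arrays limits the precision.

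Members called by Rank Products, past a log2 ratio of 1 in every array, or differing by over 1 between the populations are given with every array, as are GAPDH, HIF1A and EPAS1. The others have a value per population, and genes of the other lists are named where they were called or passed 1 in every array. EGLN2 is named in addition. The members and the lists were chosen with earlier results of these data known. Other backgrounds, scalings, filters, dyes, probe rules and tests were tried as alternatives.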

Additional observations from a re-analysis of the deposited data

Results flagged for a closer look

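At the brightest probe, these genes lay on one side of 0 in every H460C array and on the other in every H460R array. The direct limma comparison gives each difference. The genes were picked for these opposite signs on the same arrays, so the p-values are no independent support. The signs opposed in 11 members (23.4%) and in 2244 of all genes (11%). Further tested probes of SLC2A3, HK2, EPAS1, NDRG1 and PFKFB3 did not keep opposite signs in every array. Groups of 2 RNA samples are too small for a search for single deviating samples. CA9 stood at 1.65 in H460C and -1.77 in H460R (limma adjusted p = 0.000256). In NDRG1 the log2 ratios were 2.31 and -0.91 (limma adjusted p = 2.2e-06). The values of EGLN3 were 2.40 and -0.34 (limma adjusted p = 3.11e-06). These are an acid-handling enzyme, a stress gene and a HIF hydroxylase, all higher in H460C. HK2 stood at 2.00 in H460C and -0.50 in H460R (limma adjusted p = 7.58e-06). In PFKFB4 the log2 ratios were 1.73 and -0.38 (limma adjusted p = 1.16e-05). The values of SLC2A3 were 0.67 and -1.42 (limma adjusted p = 1.44e-05). The second group holds steps of glucose uptake, phosphorylation and the control of phosphofructokinase. ALDOC stood at 1.56 in H460C and -0.33 in H460R (limma adjusted p = 9.89e-06). In MXI1 the log2 ratios were 0.67 and -0.53 (limma adjusted p = 1e-04). The values of P4HA1 were 0.53 and -0.51 (limma adjusted p = 0.000158). PFKFB3 stood at 0.69 in H460C and -0.05 in H460R (limma adjusted p = 0.000692). EPAS1 was the exception in direction, at -0.63 in H460C and 0.64 in H460R (limma adjusted p = 8.17e-05). The H460R values of PFKFB3 lay within 0.10 of 0 on each array.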

How the results depend on the processing

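Over the 47 members, 1967 single values kept their side of the threshold under the alternatives, 237 came to pass it and 78 lost it. Of these values, 77, from 23 members, changed sign, each with a main value between -0.51 and 0.54. Of the 77, 0 were called in either setting. GAPDH became 0.65 in H460C and 0.71 in H460R on the Cy3 arrays, and PFKL -0.62 in H460C on the Cy5 arrays and 0.62 in H460R on the Cy3 arrays. On the arrays of 1 dye, each population needed only its own arrays and a member with an array left out was not tested (5 in H460C on Cy3, 1 in H460C and 3 in H460R on Cy5). The count of members called by Rank Products in H460C (5 higher) was 0 with the Feature Extraction log ratio and 2 with a normexp offset of 0 and with the Cy3 arrays alone. In H460R (2 higher, 2 lower) it was 0 higher and 1 lower with the Feature Extraction log ratio, and 1 lower with the Cy3 arrays alone and with the mean over probes. With limma in place of Rank Products, 39 members were higher and 4 lower in H460C (7419 and 7009 of all genes) and 17 higher and 13 lower in H460R (7413 and 6595 of all genes). With the H460C ratios averaged into 1 sample for limma, the log2 ratios stayed as they were, as at HK2 (2.00), CA9 (1.65) and CA12 (1.37). With limma and a minimum log2 ratio of 1, 15 members were higher in H460C (515 of all genes, with 340 lower) and 1 lower in H460R (78 of all genes, with 219 higher), and 9 were higher and 0 lower in H460C than in H460R (268 and 418 of all genes). The 2 members lower by over 1 in H460C than in H460R became 1 with an offset of 0, with median centring and with the mean over probes. The Cy3 arrays alone gave 6 members above 1 in every array in H460R, against 3 in the main setting, and 2 below -1 in H460C, against 0. Median log2 ratios that moved by more than the spread between single arrays were those of glycolysis in H460C (0.84 with median centring), of the other HIF targets in H460C (1.41 with median centring, 1.27 with the authors' table, 1.25 on the Cy5 arrays, 1.28 with the mean over probes) and of the HIF regulators in H460R (0.06 on the Cy5 arrays). The cause of these changes was not tested.

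Rank Products cannot be run on 1 ratio, so with a replicate left out limma was used, with the lone sample assumed to vary like the other population. Then 35 members were higher and 3 to 4 lower in H460C against H460, and 17 higher and 11 lower in H460R. Between the populations 30 to 31 were higher and 4 to 5 lower, and 16 to 19 were higher and 1 to 2 lower by over 1, with 1 lower when H460C replicate 2 or H460R replicate 2 was left out. Replicates of the populations share only a number. With that number as a replicate block, 32 members were higher and 5 lower, against 32 and 5 with H460C as 2 samples and no block, and the deviations of replicate 1 correlated at 0.206 between the populations. Keeping the outlier-marked spots, chosen after seeing the data, left every count of called members as it was. Saturation on at least 1 array touched the probes read for GAPDH, PGK1, SLC16A3, LDHA, ENO1, BNIP3, NDRG1 and GPI.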
